A study of Mus musculus with 12 samples.

Results

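A set of 10 genes of glutathione and thiol redox that are classic targets of the transcription factor NRF2 was followed in mouse primary hepatocytes after knockdown of Hnf4a, of Cebpa or of both. The genes were chosen by name: Gclc, Gclm, Slc7a11, Gsr, Txnrd1, Srxn1, Nqo1, Cbr1, Cbr3 and Hmox1. All 10 were found among the 55385 gene identifiers listed, and 10 of 10 were among the 15090 genes that passed the filter on low counts. Hepatocytes, the parenchymal cells of the liver, had been isolated from 3 mice, cultured on collagen and exposed to small interfering RNAs (siRNAs) for 48 h, and total RNA was then sequenced in 12 libraries. The 4 groups received siRNAs against Hnf4a and Cebpa together (the double knockdown), siRNA against Hnf4a alone (siHnf4a), siRNA against Cebpa alone (siCebpa) or control siRNA (siCon). Every mouse gave 1 library to each group. All groups shared Williams' E medium with 10% serum, 2 mM glutamine, 100 nM dexamethasone and 5% of an insulin, transferrin and selenium supplement, so the siCon cells also received an siRNA and a glucocorticoid. The sources used here give neither strain, sex nor age of the mice, nor the number of siRNA duplexes per target.

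NRF2, encoded by Nfe2l2, is bound by KEAP1 and degraded in resting cells. Oxidants and electrophiles modify KEAP1, and NRF2 then enters the nucleus, pairs with a small MAF protein and binds antioxidant response elements, which the repressor BACH1 can also occupy. Its targets make and recycle glutathione, keep thioredoxin and peroxiredoxins reduced, and reduce quinones and carbonyls, which are central tasks of the liver in handling drugs and reactive metabolites. HNF4A, a nuclear receptor, and C/EBPα, a basic leucine zipper protein, maintain the expression programme of hepatocytes.

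Estimated counts per library summed to 22453445 to 25008195. Hnf4a averaged 12.2 ± 1.2 TPM (a level scaled for transcript length and library size) in the double knockdown and 18.8 ± 2.1 TPM in siHnf4a, against 78.6 ± 31.3 TPM in siCebpa and 103 ± 43.4 TPM in siCon (SD, n = 3 each). Cebpa averaged 54.6 ± 7.7 TPM in the double knockdown and 15.8 ± 2.0 TPM in siCebpa, against 125 ± 11.5 TPM in siHnf4a and 114 ± 11.9 TPM in siCon (SD, n = 3 each). Cebpa was thus less depleted in the double knockdown than in siCebpa, with a log2 difference of 1.65 ± 0.13 (SE; edgeR's quasi-likelihood test, adjusted p = 5.11e-05), and the comparison of the double knockdown with siCebpa and the interaction below both rest on this unequal depletion. Summed levels of 9 hepatocyte markers ranged from 7711 to 11110 TPM in the double knockdown, 10070 to 14600 TPM in siHnf4a, 19810 to 23820 TPM in siCebpa and 22810 to 27000 TPM in siCon. Much of this sum was Trf (transferrin), at 3618 ± 784 TPM in the double knockdown, 4093 ± 416 TPM in siHnf4a and 13450 ± 1662 TPM in siCebpa, against 16870 ± 3539 TPM in siCon (SD, n = 3 each). Among the markers, Ass1 rose and Trf and Apoa1 fell in the double knockdown, Ass1 rose and Trf fell in siHnf4a, and 0 of the 9 passed in siCebpa by edgeR, DESeq2 or limma, with 0 at an unadjusted p under 0.05 and 2 lower when blocked by mouse. The median log2 fold changes of the 9 were -0.63, 0.00 and 0.06 in that order, and Alb averaged 4167 ± 1421, 6495 ± 2150 and 6142 ± 2932 TPM, against 6133 ± 1328 TPM in siCon (SD, n = 3 each). The Apoa1 call was lost without mouse 2 or 3 of the double knockdown or mouse 2 of siCon (adjusted p 0.0614 to 0.0689). Of 4 tested cholangiocyte markers, 2 fell in the double knockdown, 2 in siHnf4a and 0 in siCebpa (edgeR), where 2 had an unadjusted p under 0.05, 2 passed by DESeq2 and 0 by limma, and blocked by mouse 4, 4 and 3 fell in that order. The siHnf4a count was 0 without mouse 3 of siHnf4a or mouse 3 of siCon and 1 without mouse 2 of either, and the siCebpa count was 1 without mouse 1 of siCon. Of 8 stellate cell markers, 1 (Acta2) fell in siHnf4a, 0 passed in the double knockdown (1 at an unadjusted p under 0.05, 1 by DESeq2 and 0 by limma) and 0 in siCebpa (0 by each of these), and blocked by mouse 2 fell in the double knockdown, 3 in siHnf4a and 0 in siCebpa. Of 7 endothelial markers 0 passed against siCon (edgeR), with 1, 0 and 1 at an unadjusted p under 0.05 in the double knockdown, siHnf4a and siCebpa, 1 in siCebpa by DESeq2 and 0 by limma, and blocked by mouse 1 rose and 3 fell in the double knockdown, 1 fell in siHnf4a and 2 fell in siCebpa. Of all tested genes, 15.6%, 15.5% and 8.11% fell with the block in the double knockdown, siHnf4a and siCebpa. Of 5 lymphocyte markers, 1 was tested and it did not pass. Their part in the results was not tested. In bulk RNA, fewer cells of a type and less RNA per cell cannot be told apart.

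Promoter windows from RefSeq (GRCm38.p6), reaching from 250 bases before to 50 bases after the start of transcription, were matched for 7 of the 10 genes: Gclm, Slc7a11, Txnrd1, Srxn1, Nqo1, Cbr1 and Cbr3. Gclc, Gsr and Hmox1 are named only. The core of the antioxidant response element, TGACNNNGC on either strand, occurred in 3 of the 7 genes, against 14% of 27025 genes with a window. The matches in Gclm, Txnrd1 and Srxn1 are shown, and all 3 genes rose in every knockdown below. Slc7a11, Nqo1, Cbr1 and Cbr3, whose windows held no core, also rose in every knockdown. Capitals mark the core, which in all 3 lies on the strand opposite to the gene and therefore reads GCNNNGTCA.
Gclm, chr3:122245414-122245440, plus strand, core from -134 to -126 relative to the start: ctcccgggcGCACCGTCAactctcacg
Txnrd1, chr10:82859105-82859131, plus strand, core from -92 to -84 relative to 1 of 3 annotated starts: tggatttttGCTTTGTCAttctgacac
Srxn1, chr2:152105543-152105569, plus strand, core from 29 to 37 after the start: cagtgggcaGCTAGGTCAgagtgagac
Srxn1 also held the AP-1 word TGANTCA, which 8.97% of genes held on either strand, shown here from -45 to -39 in capitals. Srxn1 held a further AP-1 word from -102 to -96, which is not shown. An AP-1 word can overlap an antioxidant core, but the words shown do not overlap a core of the searched form, TGACNNNGC. With the bases that follow it, the AP-1 word shown reads TGAGTCAGC, which differs from the searched form only by G in place of C. Other forms of the element, those with this G among them, were not searched, so this stretch was not counted as a core.
Srxn1, chr2:152105469-152105495, plus strand: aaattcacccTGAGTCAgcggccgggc
Slc7a11 held a pair of amino acid response words, TGATGCAA on either strand, between -66 and -40, and 1.03% of genes held at least 1 such word. They are shown because Slc7a11 is also a textbook target of ATF4, the factor that binds this word when amino acids are short.
Slc7a11, chr3:50443652-50443680, minus strand: cTGATGCAAacctggagaatTTGCATCAt
Slc7a11 was also the 1 gene of the 7 with a C/EBP word (TTGCNNAA on either strand), against 12.2% of genes. The HNF4 word CAAAGTCCA, held by 0.555% of genes on either strand, was in 0 of the 7 windows. A match describes letters in this window and not a bound site.

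Against siCon, 9 of the 10 genes rose in every knockdown, and Hmox1 fell wherever Hnf4a was depleted. In the double knockdown 9 genes rose and 1 fell (edgeR's quasi-likelihood test on counts, Benjamini-Hochberg adjusted p under 0.05 over all tested genes), where 6.9% of all tested genes rose and 7.13% fell. In siHnf4a 9 rose and 1 fell, where 7.24% of all tested genes rose and 7.29% fell. In siCebpa 9 rose and 0 fell, where 2.94% of all tested genes rose and 1.72% fell (4.67% together). With mouse as a block the counts of the 10 genes were the same in each knockdown. Of all tested genes, 13.8% then rose and 15.6% fell in the double knockdown, 14.5% and 15.5% in siHnf4a, and 8.73% and 8.11% in siCebpa. With only siCebpa and siCon in the fit, 5 of the 10 passed, Gclc, Slc7a11, Txnrd1 and Cbr1 being lost, and 45 of all genes passed, against 704 with all groups in the fit. The median log2 fold change of the 10 genes was 1.48 in the double knockdown, 1.53 in siHnf4a and 0.93 in siCebpa, and that of all tested genes was 0.00 in each. In TPM, all 3 libraries lay above all 3 siCon libraries for 9 of the 10 genes in each knockdown, as they did for 14.1% of tested genes in the double knockdown, 14.9% in siHnf4a and 4.94% in siCebpa. These comparisons share the siCon libraries. On log2(TPM + 1), the median change of genes with at least 1 TPM in 3 libraries was -0.12 in siCebpa against siCon. Without that filter it was -0.02. TPM levels of siCebpa thus sit slightly lower against siCon than the count-based fold changes do. With the filter, the median was 0.095 in the double knockdown and 0.097 in siHnf4a against siCebpa. The non-overlap with siCebpa in TPM given below includes this shift.

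**Figure D1:**
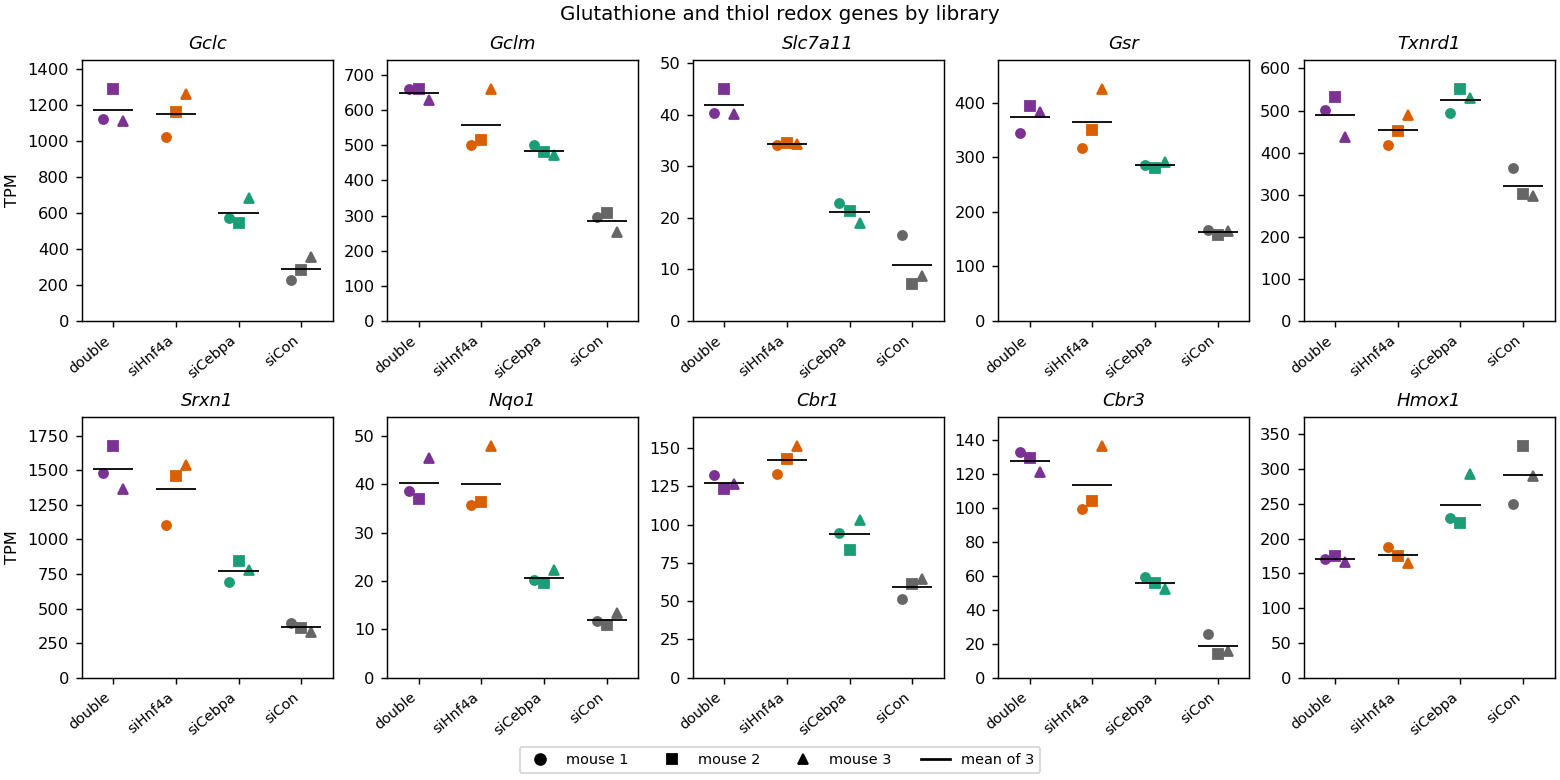
TPM (linear axis from 0) of each gene in the 12 libraries, grouped as double knockdown, siHnf4a, siCebpa and siCon, with 1 symbol per mouse and a line at the mean of 3. The panels of 9 genes have the siCon libraries lowest, and the Hmox1 panel has the double knockdown and siHnf4a lowest, between 164.5 and 188.2 TPM.

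Glutathione synthesis opens with glutamate-cysteine ligase, the rate-limiting enzyme, made of a catalytic subunit (Gclc) and a modifier subunit (Gclm). Gclc, on chromosome 9 at 77754535 to 77794485, plus strand (GRCm38), had 1121, 1286 and 1109 TPM in mice 1, 2 and 3 of the double knockdown. It had 1022, 1158 and 1258 TPM in siHnf4a and 570.6, 540.9 and 681.3 TPM in siCebpa, against 227.2, 283.5 and 356.4 TPM in siCon. The double knockdown and siHnf4a overlapped each other and lay above siCebpa, and siCebpa lay above siCon without overlap. The log2 fold change over siCon was 2.04 ± 0.17 in the double knockdown (4.12-fold, adjusted p = 3.98e-05), 2.01 ± 0.17 in siHnf4a (4.02-fold, adjusted p = 4.18e-05) and 1.21 ± 0.16 in siCebpa (2.31-fold, adjusted p = 0.0038; values after ± on log2 fold changes are SE throughout).

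Gclm, on chromosome 3 at 122245557 to 122270732, plus strand, had 659.1, 660.2 and 629 TPM in the double knockdown and 500.8, 515.7 and 659.5 TPM in siHnf4a. It had 502.1, 480.2 and 471.1 TPM in siCebpa, against 296, 306.3 and 254.1 TPM in siCon. The 3 knockdowns thus lay closer together than for Gclc, and mouse 1 of siHnf4a was lower than mouse 1 of siCebpa. Gclm rose by 1.17 ± 0.10 in the double knockdown (adjusted p = 4.52e-05), 1.00 ± 0.10 in siHnf4a (0.000161) and 0.87 ± 0.10 in siCebpa (0.00175). Gclm shared 4.47% of its 31-base words with Gm17494, a gene on the opposite strand at a mean of 1.74 TPM, and the sources used here do not give the strand setting of the counting.

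The balance of the catalytic and the modifier message also differed between groups. The ratio of Gclc to Gclm in TPM was 1.7, 1.95 and 1.76 in the double knockdown and 2.04, 2.25 and 1.91 in siHnf4a. It was 1.14, 1.13 and 1.45 in siCebpa, against 0.768, 0.926 and 1.4 in siCon. Both groups with Hnf4a siRNA lay above every siCebpa and siCon library, while siCebpa and siCon overlapped. This ratio was described and not tested.

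Slc7a11, the cystine importer that feeds cysteine to glutathione synthesis, lies on chromosome 3 at 49892526 to 50443614, minus strand, and carries the paired amino acid response words shown above. It had 40.38, 44.94 and 40.14 TPM in the double knockdown and 34.1, 34.42 and 34.37 TPM in siHnf4a. It had 22.86, 21.31 and 18.9 TPM in siCebpa, against 16.66, 7.208 and 8.755 TPM in siCon. The 4 groups did not overlap, and mouse 1 was the highest of siCon. The log2 fold change was 1.94 ± 0.27 in the double knockdown (adjusted p = 0.00108), 1.71 ± 0.27 in siHnf4a (0.00227) and 1.12 ± 0.27 in siCebpa (0.0417). The siCebpa call was lost when any 1 of 11 libraries was left out (adjusted p 0.0607 to 0.175), and without mouse 1 of siCon, where the call was kept, the change was 1.60. Of its 31-base words, 4.27% occur in other genes, Tuba1a foremost (1.59%). Tuba1a had a mean of 52.5 TPM over the 12 libraries, above every Slc7a11 value, and its part in the Slc7a11 values was not tested.

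Glutathione reductase (Gsr) returns oxidised glutathione to its reduced form. Gsr, on chromosome 8 at 33652523 to 33698163, plus strand, had 344, 394.2 and 382.3 TPM in the double knockdown and 318, 350.6 and 425.3 TPM in siHnf4a. It had 285.8, 279.9 and 291.4 TPM in siCebpa, against 165.9, 157 and 164 TPM in siCon. The siCon libraries were the lowest by a wide gap, and siCebpa lay below the other knockdowns without overlap. Gsr rose by 1.18 ± 0.09 in the double knockdown (adjusted p = 2.47e-05), 1.15 ± 0.09 in siHnf4a (4.01e-05) and 0.90 ± 0.09 in siCebpa (0.0011). Gsr overlaps Gm24727 on the same strand.

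Thioredoxin reductase 1 (Txnrd1), the cytosolic enzyme that reduces thioredoxin, was the exception among the rising genes, with its highest mean level in siCebpa. Txnrd1, on chromosome 10 at 82833951 to 82897712, plus strand, had 501.5, 531.6 and 437.6 TPM in the double knockdown and 418.9, 452.4 and 489.1 TPM in siHnf4a. It had 495, 551.1 and 530.7 TPM in siCebpa, against 363.1, 302.4 and 297.5 TPM in siCon. All siCebpa libraries lay above all siHnf4a libraries, and the double knockdown overlapped both. Over siCon, Txnrd1 rose by 0.60 ± 0.11 in the double knockdown (adjusted p = 0.00565), 0.48 ± 0.11 in siHnf4a (0.0175) and 0.83 ± 0.11 in siCebpa (0.00399). The siHnf4a call was lost without mouse 3 of siHnf4a (0.45, adjusted p = 0.0519), without mouse 2 of siCon (0.43, adjusted p = 0.0732) and without mouse 3 of siCon (0.43, adjusted p = 0.079).

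Sulfiredoxin (Srxn1), which repairs overoxidised peroxiredoxins, was among the most abundant of the 10 genes. Srxn1, on chromosome 2 at 152105516 to 152111376, plus strand, had 1483, 1675 and 1364 TPM in the double knockdown and 1103, 1461 and 1538 TPM in siHnf4a. It had 688.1, 843.4 and 777.2 TPM in siCebpa, against 399, 359 and 330.7 TPM in siCon. The lowest library with Hnf4a siRNA was above the highest of siCebpa, and siCon was lowest. Srxn1 rose by 2.08 ± 0.14 in the double knockdown (4.21-fold, adjusted p = 2.01e-05), 1.99 ± 0.14 in siHnf4a (3.96-fold, 2.85e-05) and 1.21 ± 0.14 in siCebpa (2.32-fold, 0.00175).

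Nqo1, the quinone reductase most often used as a readout of NRF2, was less abundant than Gclc, Gclm or Srxn1 in every library by TPM. Nqo1, on chromosome 8 at 107388225 to 107403206, minus strand, had 38.7, 36.94 and 45.37 TPM in the double knockdown and 35.74, 36.39 and 47.96 TPM in siHnf4a. It had 20.32, 19.65 and 22.23 TPM in siCebpa, against 11.7, 10.92 and 13.33 TPM in siCon. The double knockdown and siHnf4a covered the same range, and siCebpa fell between them and siCon without overlap. Nqo1 rose by 1.78 ± 0.14 in the double knockdown (adjusted p = 3.34e-05), 1.76 ± 0.14 in siHnf4a (4.03e-05) and 0.96 ± 0.14 in siCebpa (0.00599).

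Cbr1 and Cbr3 encode neighbouring carbonyl reductases that act on quinones, prostaglandins and drugs. Cbr1, on chromosome 16 at 93605853 to 93610505, plus strand, had 132.3, 123.4 and 126.8 TPM in the double knockdown and 133.2, 143.2 and 151.5 TPM in siHnf4a. It had 94.6, 83.68 and 103.4 TPM in siCebpa, against 51.72, 61.44 and 64.34 TPM in siCon. Cbr1 was the 1 gene whose 3 double knockdown libraries all lay below its 3 siHnf4a libraries while both groups were above siCon. Cbr1 rose by 1.19 ± 0.10 in the double knockdown (adjusted p = 4.03e-05), 1.35 ± 0.10 in siHnf4a (3.1e-05) and 0.87 ± 0.10 in siCebpa (0.00175).

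Cbr3 had the largest fold change of the 10 genes in every knockdown. Cbr3, on chromosome 16 at 93683215 to 93690990, plus strand, had 132.9, 129.3 and 120.9 TPM in the double knockdown and 99.51, 104 and 136.3 TPM in siHnf4a. It had 58.96, 55.63 and 52.41 TPM in siCebpa, against 25.43, 13.67 and 15.98 TPM in siCon. The siCon libraries were lowest, with mouse 1 the highest of them. The log2 fold change was 2.84 ± 0.21 in the double knockdown (7.15-fold, adjusted p = 2.33e-05), 2.65 ± 0.20 in siHnf4a (6.29-fold, 4.01e-05) and 1.78 ± 0.20 in siCebpa (3.43-fold, 0.00175). Cbr3 shared 2.31% of its 31-base words with Cbr1, and Cbr1 shared 7.83% of its words with other genes, mostly Gm5678 at a mean of 0.095 TPM.

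Hmox1, the inducible heme oxygenase, which breaks heme into biliverdin, iron and carbon monoxide, moved against the rest. Hmox1, on chromosome 8 at 75093621 to 75100589, plus strand, had 170.4, 175.3 and 166.8 TPM in the double knockdown and 188.2, 175 and 164.5 TPM in siHnf4a. It had 230.1, 223.3 and 293.4 TPM in siCebpa, against 249.9, 333.5 and 290.5 TPM in siCon. Both groups with Hnf4a siRNA lay below every siCebpa and siCon library, while siCebpa and siCon overlapped. Hmox1 fell by 0.74 ± 0.13 on the log2 scale in the double knockdown (adjusted p = 0.00355) and by 0.70 ± 0.13 in siHnf4a (adjusted p = 0.00521). In siCebpa the difference was -0.06 ± 0.13 (adjusted p = 0.841, 95% interval -0.34 to 0.22).

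Hmox1 is also expressed by macrophages. Of 11 tested Kupffer cell markers, 10 had log2 fold changes below 0 in each knockdown, with medians of -1.25 in the double knockdown, -1.01 in siHnf4a and -1.23 in siCebpa. The exception was Cd68, at 0.44 ± 0.90, 0.64 ± 0.90 and 0.26 ± 0.90 in that order. Cd68 averaged 182 TPM in siCon, and Lyz2, the next most abundant there, 5.48 TPM. None of the 11 passed the test in edgeR, with 2, 0 and 1 at an unadjusted p under 0.05 in that order of groups. By DESeq2 and limma 0 passed. Blocked by mouse, where 15.6%, 15.5% and 8.11% of all tested genes fell, 6, 3 and 3 of the markers passed as lower. Their summed level, mostly Cd68, ranged from 129.6 to 488.8 TPM in the double knockdown, 131.8 to 559.7 TPM in siHnf4a, 71.36 to 449.1 TPM in siCebpa and 116.7 to 353.4 TPM in siCon. Of the 13 markers, Adgre1, Cd5l, Timd4 and Cd163 were under 1 TPM in all 12 libraries. The part of these cells in the Hmox1 values was not tested.

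**Figure D2:**
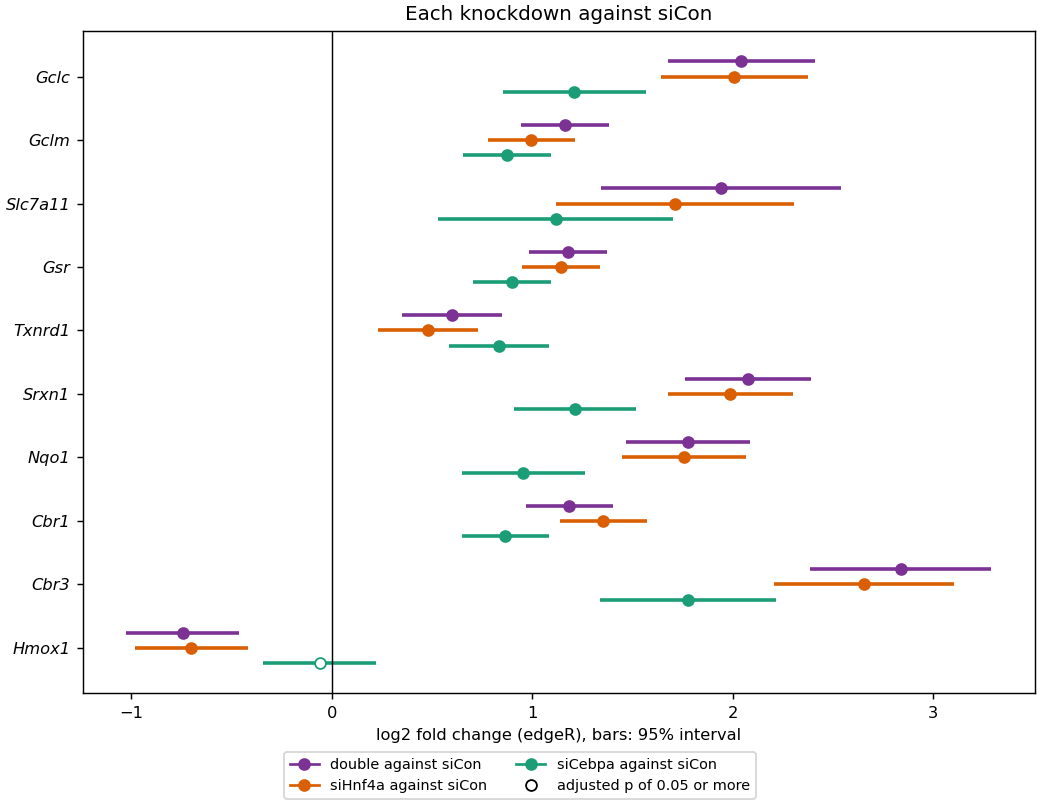
Log2 fold change (edgeR, horizontal axis) of each gene in the double knockdown, siHnf4a and siCebpa against siCon, with 95% intervals as bars and open points for an adjusted p of 0.05 or more. The double knockdown and siHnf4a points lie close together, siCebpa lies nearer to 0 for each rising gene but Txnrd1, and the 1 open point is Hmox1 in siCebpa at -0.06.

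The order of the mean TPM levels was the same for 7 of the 10 genes (Gclc, Gclm, Slc7a11, Gsr, Srxn1, Nqo1 and Cbr3): double knockdown, siHnf4a, siCebpa, then siCon. Cbr1 was highest in siHnf4a, Txnrd1 was highest in siCebpa, and Hmox1 had the reverse of the common order. The top neighbours in these orders did not differ past the test. In the double knockdown against siHnf4a, 0 of the 10 genes passed edgeR's test, 0 had an unadjusted p under 0.05, and the same held by DESeq2, by limma on log2(TPM + 1) and with mouse as a block. Only 0.00663% of all tested genes were lower and 0% higher, the 1 lower gene being Cebpa itself. Its log2 difference was -1.19 ± 0.13 here, against -2.68 ± 0.13 in siCebpa against siCon, so the effect of Cebpa siRNA on the 10 genes is not set here at matched depletion. The differences ran from -0.17 (Cbr1, 95% interval -0.38 to 0.04) to 0.23 (Slc7a11, 95% interval -0.35 to 0.81). Slc7a11 was higher in the double knockdown in 3 of 3 mice, and it was the 1 gene of the 10 whose 3 libraries lay above all siHnf4a libraries in TPM, as 3.28% of tested genes did.

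Several of the 10 genes differed between the double knockdown and siCebpa. Cebpa differed too (54.6 against 15.8 TPM), so the part of the added Hnf4a siRNA cannot be told apart. In the double knockdown against siCebpa, 4 genes were higher and 1 lower, where 6.51% of all tested genes were higher and 6.47% lower. In TPM, 8 of the 10 lay above siCebpa without overlap, as 21% of tested genes did. Cbr3 was higher by 1.06 ± 0.19 (adjusted p = 0.0053), Srxn1 by 0.86 ± 0.14 (0.00275), Gclc by 0.83 ± 0.16 (0.00781) and Nqo1 by 0.82 ± 0.14 (0.00347), and Hmox1 was lower, at -0.68 ± 0.13 (0.00669). With mouse as a block, 8 were higher and 1 lower (13% and 14.3% of tested genes), Slc7a11 (0.84, adjusted p = 0.0148), Cbr1 (0.33, 0.0137), Gsr (0.28, 0.0241) and Gclm (0.29, 0.031) being added. Without the block these 4 also passed after leaving out some libraries: Gclm without mouse 1 of siCebpa (0.36, adjusted p = 0.0455), Cbr1 without mouse 3 of siCebpa (0.43, 0.0145), Slc7a11 without mouse 1 (0.83, 0.00284) or mouse 2 of siCon (0.84, 0.03), and Gsr without mouse 1 or mouse 3 of siHnf4a or mouse 2 of siCon (0.30 each). Txnrd1 differed by -0.23 ± 0.11 (adjusted p = 0.213) and by -0.24 with the block (0.117).

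The single knockdowns differed from each other as well. In siHnf4a against siCebpa, 5 genes were higher and 1 lower, where 7.51% of all tested genes were higher and 8.67% lower. In TPM, 7 of the 10 lay above siCebpa without overlap, as 22.2% of tested genes did. Cbr3 (0.88 ± 0.19, adjusted p = 0.0116), Nqo1 (0.80 ± 0.14, 0.00347), Gclc (0.80 ± 0.16, 0.0082), Srxn1 (0.77 ± 0.14, 0.00409) and Cbr1 (0.49 ± 0.10, 0.00736) were higher in siHnf4a, and Hmox1 was lower (-0.64 ± 0.13, 0.00778). With mouse as a block, Gsr was higher too (0.25, adjusted p = 0.0378) and Txnrd1 lower (-0.35, 0.024), where 14.9% of all tested genes were higher and 16.3% lower. Without the block Txnrd1 had an adjusted p of 0.0554, and 0.0355 without mouse 1 of siCon. Slc7a11 differed by 0.60 ± 0.26 (0.15), and by 0.60 without mouse 1 of siCon (0.0114). Gclm differed by 0.12 ± 0.10 (95% interval -0.09 to 0.34).

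For most of these genes the change in the double knockdown was smaller than the summed changes of the single knockdowns. The interaction, the log2 change in the double knockdown less the log2 changes in both single knockdowns, was below 0 for 9 of the 10 genes, each time in 3 of 3 mice. It passed edgeR's test for Cbr1 (-1.03 ± 0.14, adjusted p = 0.0219) and Gsr (-0.86 ± 0.12, adjusted p = 0.0313), where 0.0331% of all tested genes were lower and 0.053% higher (0.0861% together). With mouse as a block it passed for 8 of the 10, where 1.83% of all tested genes were lower. The block values were -1.61 for Cbr3 (adjusted p = 0.0079), -1.18 for Gclc (0.0068), -1.12 for Srxn1 (0.0108), -1.03 for Cbr1 (0.00297), -0.93 for Nqo1 (0.00251), -0.86 for Gsr (0.00569), -0.72 for Txnrd1 (0.0266) and -0.71 for Gclm (0.0172). Slc7a11, at -0.94, did not pass with the block (0.118), and Hmox1 was at 0.02 (95% interval without the block -0.38 to 0.42).

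The Gsr interaction call was lost when any library except mouse 1 of siCon was left out (adjusted p 0.0594 to 0.131), and the Cbr1 call when any except mouse 2 or 3 of siCebpa or mouse 1 of siCon was left out (0.0532 to 0.125), while over the 12 such fits the values stayed between -0.92 and -0.79 for Gsr and between -1.13 and -0.92 for Cbr1. Without mouse 1 of siCon, Cbr3 (-1.91, adjusted p = 0.0063) and Slc7a11 (-1.37, 0.0362) passed as well. By limma on log2(TPM + 1) 0 of the 10 passed, 8 having an unadjusted p under 0.05, and by DESeq2 8 passed, where 234 of all genes passed by DESeq2 and 13 by edgeR. Cebpa itself had an interaction of 1.50 ± 0.18 (adjusted p = 0.0131), its level being less reduced in the double knockdown than in siCebpa, and the part of this in the interaction of the redox genes cannot be told apart in this design.

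**Figure D3:**
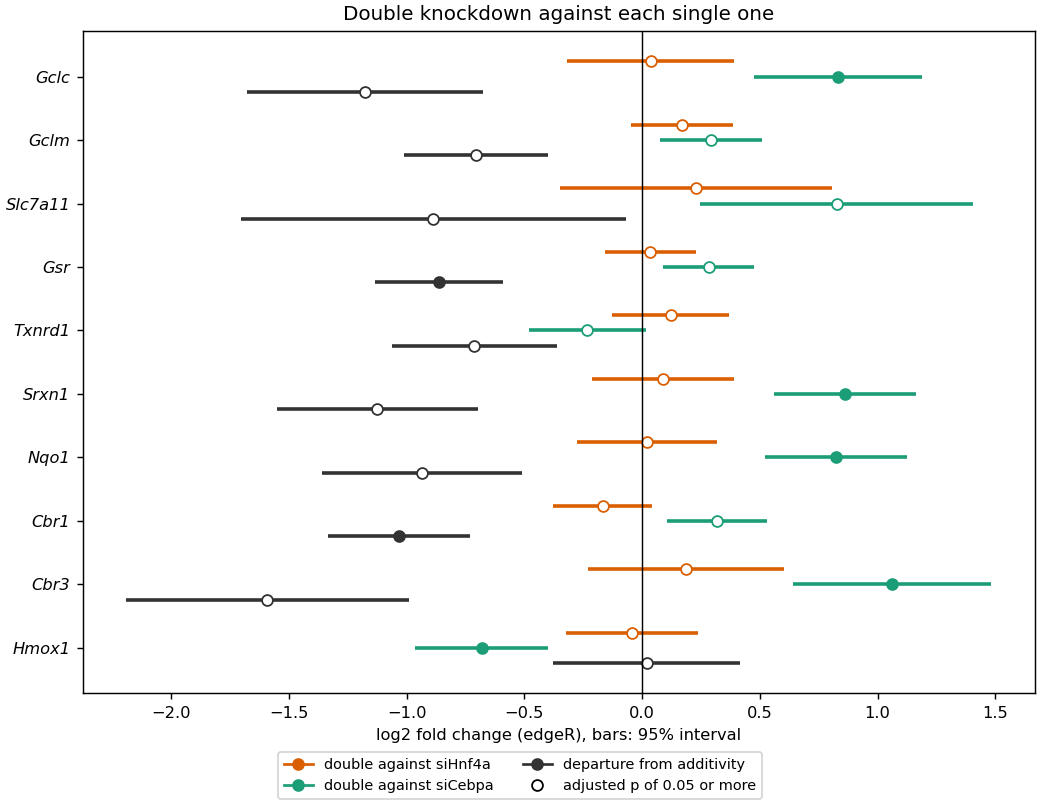
Log2 difference (edgeR, horizontal axis) of each gene between the double knockdown and siHnf4a, between the double knockdown and siCebpa, and for the departure from additivity (interaction), with 95% intervals as bars and open points for an adjusted p of 0.05 or more. The points against siHnf4a lie between -0.17 and 0.23, those against siCebpa are mostly above 0, and the interaction is below 0 for each gene but Hmox1.

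Mice contributed unevenly to these levels. In siHnf4a, mouse 3 had the highest TPM for 8 of the 10 genes (all but Slc7a11 and Hmox1), and in the double knockdown mouse 2 was highest for 7. In siCon, mouse 1 was highest for 5 genes (Cbr3, Gsr, Slc7a11, Srxn1 and Txnrd1) and mouse 3 for 3 (Cbr1, Gclc and Nqo1). The Hnf4a level in siCon was 54.3 TPM in mouse 1, against 116 and 138.1 TPM in mice 2 and 3. In siCebpa, mouse 3 was highest for 5 genes (Cbr1, Gclc, Gsr, Hmox1 and Nqo1). Its Hnf4a level was 114.8 TPM, against 61.09 and 59.95 TPM in mice 1 and 2. A link between Hnf4a levels and these ranks was not tested. For Slc7a11 the log2 ratio of siHnf4a to siCon was 1.09 in mouse 1, 2.38 in mouse 2 and 2.01 in mouse 3. For Cbr3 it was 2.04, 2.93 and 3.11 in mice 1, 2 and 3, and for Srxn1 1.59, 2.10 and 2.27. Mouse 1 thus had the smallest ratio for each of these 3 genes, as it did for Gclm, Gsr, Txnrd1 and Nqo1. Hmox1 fell least in mouse 1. For Gclc mouse 1 had the largest ratio (2.21, against 2.05 and 1.82 in mice 2 and 3). For Cbr1 its ratio lay between those of mice 2 and 3 (1.35, against 1.39 and 1.33). The calls that changed without the siCon library of mouse 1 are given with each gene.

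Over the 12 libraries the 9 rising genes varied together, with Pearson's r on log2 CPM (counts scaled for library size) from 0.58 (Txnrd1 with Nqo1) to 0.99 (Gsr with Cbr3) over 36 pairs. Hmox1 was negatively correlated with each of them, from -0.85 to -0.29 over 9 pairs. The points share libraries and group differences. After the group means were removed, r ran from -0.53 to 0.88 over the same 36 pairs, with 12 pairs below 0. Over the 9 pairs with Hmox1 it then ran from -0.655 to 0.56, with 7 below 0. Hmox1 was positively correlated with Cbr1 (0.56) and Gclc (0.415) there. The 8 genes outside the list whose log2 CPM over the 12 libraries followed the mean standardised level of the 10 genes most closely were Blvrb (r = 0.984), Slc48a1 (0.979), Pdia4 (0.978), Cstb (0.978), Ethe1 (0.976), Psma5 (0.972), Ugt2b35 (0.972) and Esd (0.970). Blvrb encodes biliverdin reductase B, Slc48a1 a heme transporter, Pdia4 a disulfide isomerase of the endoplasmic reticulum, Ethe1 a mitochondrial persulfide dioxygenase and Psma5 a proteasome subunit.

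The message for NRF2 itself moved with most of the 10 genes in siHnf4a and against them in siCebpa. Nfe2l2 had 516.5, 616.5 and 647.3 TPM in the double knockdown and 616.9, 701.8 and 714.5 TPM in siHnf4a. It had 341.3, 306.6 and 283.2 TPM in siCebpa, against 520.6, 456.3 and 480.4 TPM in siCon. It was lowest in siCebpa, where 9 of its 10 targets rose, and the double knockdown overlapped siCon. Nfe2l2 rose in siHnf4a (0.50 ± 0.12, adjusted p = 0.0191) and fell in siCebpa (-0.49 ± 0.12, adjusted p = 0.0458), and in the double knockdown the value was 0.31 ± 0.12 (adjusted p = 0.114). The siHnf4a call was lost without mouse 2 or 3 of siHnf4a or mouse 2 or 3 of siCon (adjusted p 0.0584 to 0.0841). The siCebpa call was lost when any 1 of 9 libraries was left out, the others being mice 1 and 3 of the double knockdown and mouse 1 of siCebpa (0.0572 to 0.165). The difference of siHnf4a from siCebpa (0.98 ± 0.12, adjusted p = 0.000566) and that of the double knockdown from siCebpa (0.80 ± 0.12, adjusted p = 0.00198) kept their calls in 21 of 21 alternatives.

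Bach1, the repressor that competes with NRF2, had 41.75, 58.15 and 55.74 TPM in the double knockdown and 39.88, 55.69 and 57.04 TPM in siHnf4a. It had 24.29, 28.71 and 21.17 TPM in siCebpa, against 26.48, 23.2 and 23.29 TPM in siCon. Bach1 rose by 1.13 ± 0.17 in the double knockdown (adjusted p = 0.00138) and by 1.10 ± 0.17 in siHnf4a (0.00167), and in siCebpa the value was 0.20 ± 0.16 (0.562). In all, 4 of 10 tested regulators rose and 0 fell in the double knockdown, 4 rose and 0 fell in siHnf4a, and 0 rose and 1 (Nfe2l2) fell in siCebpa, with medians of 0.30, 0.22 and 0.01 in that order. In the fit blocked by mouse, 13.8% and 14.5% of all tested genes rose in the double knockdown and siHnf4a. Of the regulators, 5 rose and 1 fell in each of these groups. In siCebpa, where 8.11% of all tested genes fell with the block, 3 regulators fell. Leaving out 1 library gave 1 to 4 calls in the double knockdown (lowest without mouse 1 of the double knockdown or mouse 3 of siCon), 1 to 4 in siHnf4a (lowest without mouse 2 of siHnf4a or mouse 2 or 3 of siCon) and 0 to 1 in siCebpa. Rbx1, a subunit of the ubiquitin ligase that acts with KEAP1, was at 0.28 ± 0.08 in the double knockdown and 0.29 ± 0.08 in siHnf4a, with the calls lost in 15 and 13 of 21 alternatives. Keap1, the NRF2 inhibitor, was at 0.45 ± 0.12 in the double knockdown and 0.40 ± 0.12 in siHnf4a, and its call was lost in 5 and 11 of 21 alternatives. For the double knockdown these included leaving out mouse 1 or 3 of the double knockdown or mouse 2 or 3 of siCon, and for siHnf4a any library except mice 1 and 3 of siCebpa and mouse 1 of siCon. Mafg, a small MAF partner, was at 0.36 ± 0.10 in the double knockdown, with the call lost in 7 of 21 alternatives, among them leaving out mouse 1 or 2 of the double knockdown, mouse 2 of siHnf4a or mouse 1 or 3 of siCon.

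**Figure D4:**
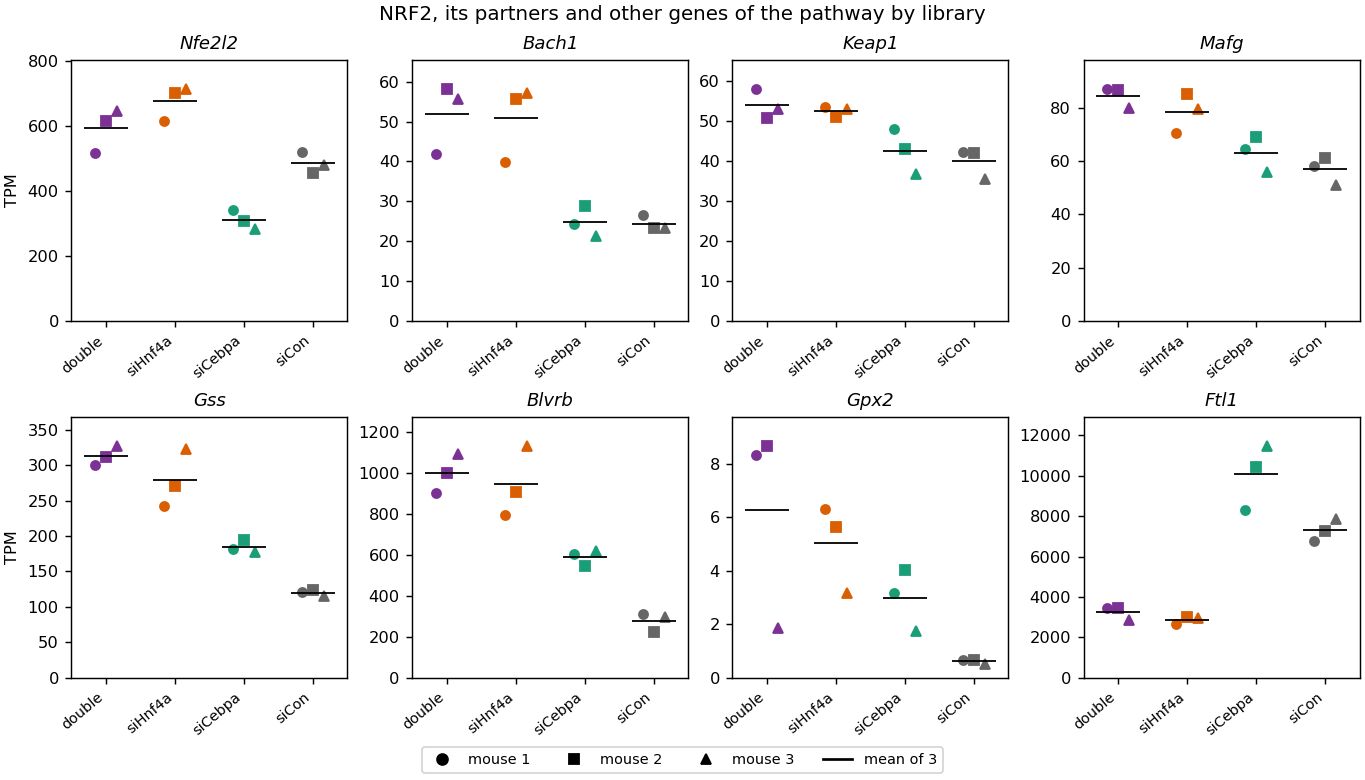
TPM (linear axis from 0) of Nfe2l2, Bach1, Keap1, Mafg, Gss, Blvrb, Gpx2 and Ftl1 in the 12 libraries, grouped as double knockdown, siHnf4a, siCebpa and siCon, with 1 symbol per mouse and a line at the mean of 3. Nfe2l2 is lowest in siCebpa, Bach1 is highest in the double knockdown and siHnf4a, and Ftl1 is highest in siCebpa at 8328 to 11480 TPM.

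Among other known NRF2 targets more genes rose than fell in each knockdown. Of 20 tested, 12 rose and 2 fell in the double knockdown (median 0.97), 12 rose and 2 fell in siHnf4a (median 0.87), and 11 rose and 0 fell in siCebpa (median 0.59), where 6.9%, 7.24% and 2.94% of all tested genes rose in that order. Blocked by mouse, 16 rose in each knockdown, where 13.8%, 14.5% and 8.73% of all tested genes rose in the same order. Leaving out 1 library gave 11 to 15 calls in the double knockdown and 11 to 14 in siHnf4a. In siCebpa limma on log2(TPM + 1) called 5, and leaving out 1 library gave 3 to 11, with 3 without mouse 2 of siCon, 4 without mouse 3 and 7 without mouse 1 of siCon, and 6 without mouse 2 of the double knockdown, mouse 2 of siHnf4a or mouse 3 of siCebpa. Gpx2, a glutathione peroxidase, rose by 3.36 ± 0.57 in the double knockdown and 3.04 ± 0.57 in siHnf4a, and its siCon level was 0.62 ± 0.08 TPM (SD, n = 3). In siCebpa it was at 2.44 ± 0.57 (adjusted p = 0.0389), and that call was lost when any 1 of 10 libraries was left out (0.0508 to 0.16), the others being mouse 3 of the double knockdown and mouse 3 of siHnf4a. Blvrb rose by 1.88 ± 0.16, 1.76 ± 0.16 and 1.29 ± 0.16 in the double knockdown, siHnf4a and siCebpa. Pir, an iron-binding nuclear protein, rose by 1.41 ± 0.12, 1.41 ± 0.12 and 0.93 ± 0.11, and the pentose phosphate enzyme Taldo1 by 1.36 ± 0.17, 1.15 ± 0.17 and 1.01 ± 0.17, in the same order of groups. The siCebpa call of Taldo1 was lost without mouse 2 or 3 of siCon (adjusted p 0.0587 to 0.0606).

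Ferritin light chain, a subunit of the iron store, went opposite ways in the single knockdowns. Ftl1 had 3432, 3472 and 2861 TPM in the double knockdown and 2662, 2986 and 2982 TPM in siHnf4a. It had 8328, 10420 and 11480 TPM in siCebpa, against 6765, 7268 and 7848 TPM in siCon. Ftl1 fell by 1.15 ± 0.14 in the double knockdown (adjusted p = 0.00045) and by 1.34 ± 0.14 in siHnf4a (0.000193), like Hmox1. It rose by 0.64 ± 0.14 in siCebpa (0.0284), a call lost in 11 of 21 alternatives, 7 of them leaving out a library (0.0529 to 0.121): mouse 2 of the double knockdown, mouse 2 of siHnf4a, mice 2 and 3 of siCebpa or any of siCon. The difference of siHnf4a from siCebpa was -1.98 ± 0.14 (adjusted p = 3.22e-05). The interaction was above 0 for 0 of these 20 targets, and 0 passed in edgeR, with 12 at an unadjusted p under 0.05, 5 by DESeq2, 0 by limma on log2(TPM + 1) and 9 with mouse as a block.

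Further genes of the glutathione and thioredoxin systems are read against the same shares of all tested genes that rose (6.9%, 7.24% and 2.94%). With mouse as a block, 13.8%, 14.5% and 8.73% of all tested genes rose and 15.6%, 15.5% and 8.11% fell. Of 20 tested genes of glutathione synthesis, use and breakdown, 1 rose in the double knockdown, 4 rose in siHnf4a and 2 rose in siCebpa, and 0 fell in each (medians 0.12, 0.19 and 0.22). In the fit blocked by mouse, 5 rose in each knockdown, and 1, 1 and 3 fell in the double knockdown, siHnf4a and siCebpa. Leaving out 1 library gave 1 to 3, 1 to 4 and 1 to 3 calls in that order, with 1 in siHnf4a without mouse 1 or 2 of siHnf4a or mouse 2 or 3 of siCon, and 3 in the double knockdown without mouse 1 of siCebpa. Gss, which carries out the second step of glutathione synthesis, rose in all 3, by 1.40 ± 0.10 in the double knockdown, 1.22 ± 0.10 in siHnf4a and 0.77 ± 0.10 in siCebpa. Its levels averaged 314 ± 13.2, 279 ± 41.2 and 184 ± 8.6 TPM in those groups, against 120 ± 4.6 TPM in siCon (SD, n = 3 each). Of 17 tested thioredoxin and peroxiredoxin genes, 1 rose and 0 fell in the double knockdown, 2 rose and 0 fell in siHnf4a, and 1 rose and 1 fell in siCebpa (medians -0.03, -0.01 and 0.13). Blocked by mouse, 2 rose and 2 fell in the double knockdown, 3 rose and 2 fell in siHnf4a, and 5 rose and 1 fell in siCebpa. The siCebpa calls numbered 0 without mouse 3 of siCebpa or mouse 2 or 3 of siCon and 4 without mouse 1 of siCebpa. Txn1, cytosolic thioredoxin, rose by 0.65 ± 0.09, 0.56 ± 0.09 and 0.52 ± 0.09 in the double knockdown, siHnf4a and siCebpa, the siCebpa call being lost without mouse 3 of siCebpa or mouse 2 or 3 of siCon (adjusted p 0.0687 to 0.0883). Txnip, which inhibits thioredoxin, rose in siHnf4a (1.20 ± 0.23, adjusted p = 0.00647) and was at 0.40 ± 0.23 in the double knockdown (0.284). In siCebpa Txnip fell by 0.95 ± 0.23 (0.0431), a call lost when any library but mouse 1 of siCebpa was left out (0.0605 to 0.156).

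Several smaller groups were also counted. Among 4 superoxide dismutase and catalase genes, Sod1 rose in each knockdown (0.61 ± 0.15, 0.58 ± 0.15 and 0.61 ± 0.15 in the double knockdown, siHnf4a and siCebpa), with the calls lost in 3, 4 and 11 of the 12 fits that left out 1 library (adjusted p 0.0614 to 0.197). These libraries were mouse 1 of the double knockdown and mice 2 and 3 of siCon for the double knockdown, mice 1 and 2 of siHnf4a and mice 2 and 3 of siCon for siHnf4a, and all but mouse 1 of siCon for siCebpa. Among 6 other carbonyl and quinone reductases, Dhrs4 fell in the double knockdown (-0.91 ± 0.11) and in siHnf4a (-0.70 ± 0.11), and 0 rose. In siCebpa 0 of the 6 passed in edgeR, with 1 at an unadjusted p under 0.05, 0 by DESeq2, 0 by limma and 1 with mouse as a block. Of 7 other heme genes, 1 rose and 1 fell in the double knockdown, 3 rose and 1 fell in siHnf4a, and 1 rose and 2 fell in siCebpa. Leaving out 1 library gave 1 to 3, 1 to 4 and 0 to 4 heme gene calls in that order, lowest without mouse 2 or 3 of the double knockdown or mouse 2 of siCon, without mouse 2 of siCon, and without mouse 3 of siCon. Slc48a1 rose in each knockdown (1.11 ± 0.11, 0.95 ± 0.11 and 0.71 ± 0.11), its siCebpa call being lost without mouse 3 of siCon (0.0504). Of 12 other genes known to respond to ATF4, 2 rose and 1 fell in the double knockdown, and 1 rose and 2 fell in siHnf4a (3 and 3 when blocked by mouse). Without mouse 1 of the double knockdown or mouse 3 of siCon 1 passed in the double knockdown, and without mouse 2 or 3 of siHnf4a or of siCon 1 passed in siHnf4a. In siCebpa 0 passed in edgeR, with 2 at an unadjusted p under 0.05, 1 by DESeq2, 0 by limma and 2 with mouse as a block. Nupr1, a stress response gene, rose by 1.07 ± 0.22 in the double knockdown, and the serine synthesis enzyme Psat1 fell by 1.02 ± 0.20 in siHnf4a.

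**Figure D5:**
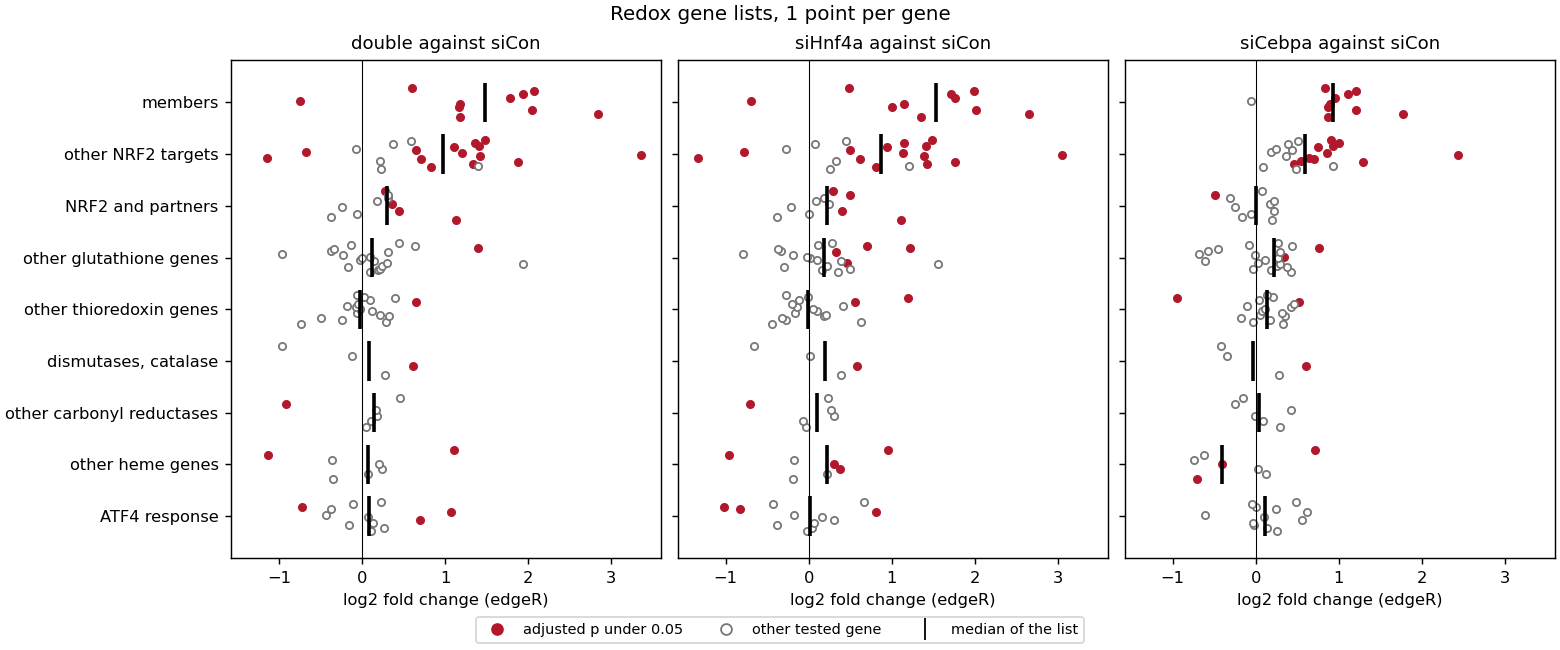
Log2 fold change against siCon (edgeR, horizontal axis) of every tested gene of the 10 and of 8 further lists, with panels for the double knockdown, siHnf4a and siCebpa, filled points for an adjusted p under 0.05 and a bar at each list's median. The medians of the 10 genes (1.48, 1.53 and 0.93) and of the other NRF2 targets (0.97, 0.87 and 0.59) lie furthest to the right, and the medians of the remaining lists lie between -0.41 (other heme genes in siCebpa) and 0.30 (regulators in the double knockdown).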

How the data were processed

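RNA of 12 libraries (4 groups of 3 mice) was analysed. The authors deposited estimated counts (expected counts, partly fractional, not normalised) and TPM per gene. Tools and build, per the submitters' processing notes, were kallisto 0.4.6, Trim Galore 0.6.4 and GRCm38.p6. The sources used here state neither annotation nor strandedness. Identifiers were matched to GENCODE M21 (55144 of 55385; 241 had no symbol, with 0.0035% of counts).

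Estimated counts were rounded and tested in R 4.3.3 with edgeR 4.0.16 (filterByExpr, TMM factors 0.947 to 1.038, quasi-likelihood fit of 1 mean per group over 12 libraries, 8 residual degrees of freedom). All tests were two-sided, with Benjamini-Hochberg adjustment over 15090 genes (40295 not tested) and a threshold of 0.05. TPM values are levels as deposited. The alternatives comprised another tool (DESeq2 1.42.0), RLE scaling, every gene with at least 1 count, a filter of 1 CPM in 3 libraries, only the compared groups, limma-trend (limma 3.58.1) on log2 of TPM plus a pseudocount of 1 or 0.1, a block for mouse, which left 6 degrees of freedom, and leaving out each library. Replicate numbers name the mouse per the series' design text; same-mouse residuals correlated at 0.16 to 0.68 over 18 pairs, and 12 of 12 libraries correlated best with their own mouse. On simulated data for siHnf4a against siCon (14720 genes), 75 of 100 changes of 1 log2 unit and 97 of 100 of 2 were recovered, with 10 false among 182 calls. The simulated libraries were drawn independently, without a mouse effect. Far fewer genes were changed than the 2193 called for this comparison, and only in siHnf4a. These figures therefore do not give the recovery or false calls of the test on the paired data.

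The 10 genes and all lists were chosen with earlier results of these data known. Named genes are the 10, Hnf4a, Cebpa and Nfe2l2, some of the most changed genes of each list, and the 8 genes of at least 5 CPM correlating best with the 10. Fth1 is named as the partner of Ftl1. Promoter words were searched in RefSeq windows, and figures and summaries were made in Python 3.11.15 with numpy 2.4.6, pandas 2.3.3 and matplotlib 3.10.9. The single-gene result of 1 hepatocyte marker is not reported here.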

Additional observations from a re-analysis of the deposited data

Results flagged for a closer look

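The change that the Cebpa siRNA gave differed with and without the Hnf4a siRNA for 2 of the 10 genes, by the interaction term of edgeR's quasi-likelihood fit. That fit had no block for mouse. With the block 8 of the 10 passed, by DESeq2 8 and by limma on log2(TPM + 1) 0. Of all tested genes, 0.0861% passed without the block, and 1.99% were higher and 1.83% lower with it. By DESeq2, 234 of all genes passed. Both edgeR calls were lost in most fits that left out 1 library. For Gsr the interaction was -0.86 (adjusted p = 0.0313), with 0.03 for the double knockdown against siHnf4a and 0.90 for siCebpa against siCon. For Cbr1 the interaction was -1.03 (adjusted p = 0.0219), with -0.17 for the double knockdown against siHnf4a and 0.87 for siCebpa against siCon. Cebpa was depleted less in the double knockdown (54.6 TPM) than in siCebpa (15.8 TPM).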

How the results depend on the processing

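Depth was not limiting for the 10 genes, whose estimated counts ranged from 228 (Cbr3) to 68436 (Gclc) per library; 3 mice per group limit the precision. Of 1460 alternative values of the 10 genes' log2 fold changes, 1343 kept direction and side of the threshold, 55 gained a call, 47 lost one and 15 changed sign, and the cause was not tested. The 15 came from leaving out 1 library, which gave ranges of -0.202 to 0.016 for Hmox1 in siCebpa against siCon, -0.062 to 0.159 for the Hmox1 interaction and, for the double knockdown against siHnf4a, -0.020 to 0.092 for Gclc, -0.018 to 0.094 for Gsr, -0.008 to 0.164 for Srxn1, -0.089 to 0.156 for Nqo1 and -0.105 to 0.033 for Hmox1; none of these was called.

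Counts of calls over all genes moved as follows. With mouse as a replicate block they were 4448 for the double knockdown against siCon (2117 without the block), 4533 for siHnf4a (2193), 2542 for siCebpa (704), 4121 for the double knockdown against siCebpa (1959), 4712 for siHnf4a against siCebpa (2442) and 576 for the interaction (13). The block moved the counts of the 10 genes to 8 higher for the double knockdown against siCebpa, 2 lower for siHnf4a against siCebpa and 8 lower for the interaction, and it changed no other call among them except Gsr, higher in siHnf4a against siCebpa. With limma on log2(TPM + 1) and no filter, the all-gene counts in that order of comparisons were 1076, 1054, 248, 1114 and 1400, with 3 for the double knockdown against siHnf4a; Hmox1 then lost its call in both comparisons with siCebpa (0 lower). With only the compared groups they were 45 for siCebpa (5 of the 10 genes higher), 841 for the double knockdown against siCebpa, 1322 for siHnf4a against siCebpa and 0 for the double knockdown against siHnf4a. DESeq2 called 1326 for siCebpa, 4 for the double knockdown against siHnf4a and 234 for the interaction, and of the 10 genes 8 higher for the double knockdown against siCebpa, 2 lower for siHnf4a against siCebpa and 8 lower for the interaction. No filter gave 398, 2 and 25 for these comparisons, with 4 of the 10 lower for the interaction, and the filter of 1 CPM gave 2 of the 10 lower for siHnf4a against siCebpa. Limma on log2(TPM + 1) and log2(TPM + 0.1) gave 441 and 440 for siCebpa, 2 for the double knockdown against siHnf4a (0.1 only), 8 of the 10 higher for the double knockdown against siCebpa, and 0 of the 10 for the interaction in all 3 TPM fits.

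Leaving out 1 library gave all-gene counts of 1210 to 2405 for the double knockdown against siCon, 1120 to 2450 for siHnf4a, 114 to 796 for siCebpa, 0 to 1 for the double knockdown against siHnf4a, 1053 to 2126 for it against siCebpa, 1131 to 2880 for siHnf4a against siCebpa and 0 to 17 for the interaction. Of the 10 genes, 0 to 4 were then lower for the interaction and 1 to 2 for siHnf4a against siCebpa.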
